A study of Homo sapiens with 10 samples.

Results

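The 10 genes described here encode the focal adhesion kinase FAK (PTK2), its paralog PYK2 (PTK2B) and direct partners and scaffolds of these kinases: PXN, BCAR1, NEDD9, RB1CC1, VCL, GIT1, GIT2 and ARHGEF7. They were selected by gene symbol from a table of 19590 genes, and 10 of the 10 symbols were found. The comparison of IRF8 KO with Control cells had already been seen when the set was put together, so the differences of these 10 genes are given as a description. No p-value is printed for them, and calls are stated beside the share of all genes called.

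RNA-Seq was performed in MV4-11 cells, a human acute myeloid leukemia line. The 4 Control libraries came from cells infected with the control vector, and the 4 IRF8 KO libraries came from clones in which IRF8 was targeted with the lentiCRISPRv2 vector. According to the methods, the infected lines were selected with puromycin and the knockout clones were obtained by limited dilution and made with different guides. Which clone each library came from is not given in the labels, so differences between clones and between replicates cannot be told apart. Nothing in the labels says that libraries of a group were separate cultures, and the errors therefore cover the spread between these libraries, which may be technical. In a bulk sample, fewer cells expressing a gene and less RNA of it per cell cannot be told apart.

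Focal adhesions are the sites at which integrins couple the extracellular matrix to the actin cytoskeleton. FAK and PYK2 are the members of a small family of cytoplasmic tyrosine kinases. FAK phosphorylates itself when integrins are engaged, recruits SRC family kinases to that site, and together they phosphorylate the adaptors paxillin and p130CAS, which then recruit CRK and activators of RAC. PYK2 has the same domain layout, is strongly expressed in blood cells and also responds to calcium and chemokine signals. Vinculin ties talin to actin, and the GIT and PIX proteins form a complex that binds paxillin and brings PAK kinases to the adhesion. FIP200, the product of RB1CC1, binds and inhibits FAK and PYK2 and is also a core subunit of the ULK complex that starts autophagy.

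Depth was 48762519 to 65519047 reads on genes in the Control libraries and 39560072 to 54048461 in the IRF8 KO libraries. Values are counts divided by a size factor per library (normalized counts). They are not corrected for transcript length, so levels are compared between libraries and not between genes. IRF8, the targeted transcription factor, was measured at 36890.9, 15192.3, 43015.5 and 22534.8 normalized counts in Control replicates 1 to 4 and at 6376.8, 2401.0, 12902.7 and 7819.7 in IRF8 KO replicates 1 to 4. All KO libraries were below all Control libraries, and the KO mean was 25.1% of the Control mean. These values are of RNA and do not give the level of the protein. The paper reports that IRF8 protein was absent from the knockout cells on a Western blot. Of the marker lists, all 10 myelomonocytic genes were above the expression filter, 4 of them (MPO, ITGAM, CD4 and PTPRC) were called higher in IRF8 KO. CD33, CSF1R and FLT3, with log2 differences of -0.34, -0.27 and -0.21, were not called. The summed level of all 10 ranged from 81704.4 to 96133.2 in Control and from 124654.0 to 363529.1 in IRF8 KO, where LYZ, which was not called, reached up to 248603.8.

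Among the promoter sequences of RefSeq (GRCh38.p14, windows from 250 bases before to 50 bases after a gene start), 19 windows belonged to 7 of the 10 genes, and PTK2, PTK2B and RB1CC1 were not searched. The windows were searched on both strands for GAAA, 2 bases of any kind and GAAA, the pattern of the IRF response element, which 3.57% of all 35116 windows hold. Of the 19 windows 1 held this pattern, and its match, in NEDD9, is shown because IRF8 is a factor of this family. In the line below the motif is in capitals, and it lies on the strand opposite to the gene. A match of letters is a description and does not show binding.
NEDD9: TTTCTCTTTCtgtcttcttt
The NEDD9 stretch (GRCh38.p14, chr6:11232899-11232918, minus strand) holds the pattern at the outer edge of its window, with the first base of the motif 250 bases before the start. The match lay in 1 of the 3 windows of NEDD9. The gene was not called different between the groups, as given below.

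To find differentially expressed genes, log2(normalized count + 1) was compared by limma. Tested were the 13110 genes whose mean reached 10, and a gene was called at a Benjamini-Hochberg adjusted p below 0.05. Differences are IRF8 KO minus Control on this log2 scale, which understates the change of low genes. Of the 10 genes, 9 passed the filter and BCAR1 did not. PTK2 was called lower, and none of the 9 was called higher, also not with edgeR or DESeq2 or at an unadjusted p below 0.05. Across all tested genes 18.2% were called, 9.56% lower and 8.65% higher. As these values belong to the comparison already known when the set was chosen, nothing is read from the count. The log2 difference was negative in 5 and positive in 4 of the 9 genes, with a median of -0.01, beside -0.001 over all tested genes. Without PTK2, the differences of the other 8 ranged from -0.64 to 0.25.

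**Figure D1:**
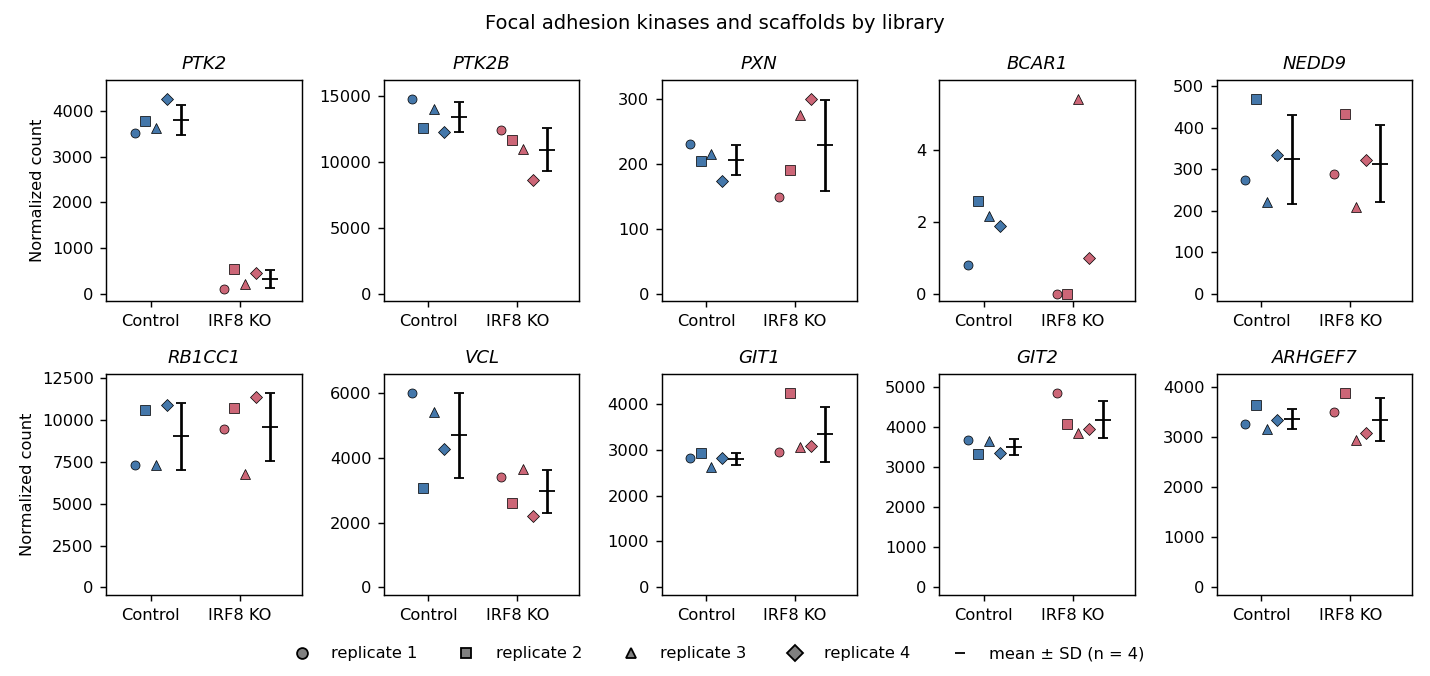
Normalized counts of the 10 genes in the 4 Control (blue) and 4 IRF8 KO (red) libraries, with the symbol giving the replicate number and the bar the mean ± SD of 4 libraries (no bar for BCAR1, which rests on 8 and 5 reads). The 4 IRF8 KO libraries lie between 103.4 and 539.1 for PTK2, against 3523.5 to 4265.2 in Control, while the groups of most other genes overlap.

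PTK2, the focal adhesion kinase, fell from a substantial level in Control cells to a small remainder in IRF8 KO cells. It was measured at 3523.5, 3787.5, 3641.5 and 4265.2 normalized counts in Control replicates 1 to 4 and at 103.4, 539.1, 208.5 and 446.6 in IRF8 KO replicates 1 to 4. The groups did not overlap, and PTK2 RNA was still detected in each KO library, from 97 reads in replicate 1 to 564 reads in replicate 2. The KO mean was 8.53% of the Control mean. On the log2 scale this was a difference of -3.82 (SE 0.46, 95% interval -4.87 to -2.76, n = 4 per group). Of the 13110 tested genes, 143 (1.09%) had a difference as low.

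The remaining PTK2 RNA varied far more between the KO libraries than the full level did between the Control libraries. The coefficient of variation was 62.5% in IRF8 KO and 8.56% in Control. IRF8 KO replicates 2 and 4 were above replicates 1 and 3 by 1.73 on the log2 scale, whereas the same replicate numbers in Control differed by 0.17. By replicate number, the log2 difference was -5.08, -2.81, -4.12 and -3.25. The lowest KO level of PTK2 was in replicate 1. The lowest KO level of IRF8 RNA was in replicate 2, which had the highest PTK2 of the KO group. IRF8 KO replicate 4, with the second highest PTK2 of the KO group, had the second highest IRF8 RNA (7819.7, above 6376.8 in replicate 1). In Control, IRF8 RNA was lower in replicates 2 and 4 than in replicates 1 and 3, an order that the KO libraries did not share. A relation between PTK2 and the remaining IRF8 RNA was not tested.

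PTK2B, which encodes PYK2, kept most of its level. It was measured at 14752.2, 12570.9, 13997.0 and 12289.9 normalized counts in Control and at 12377.4, 11680.1, 11006.8 and 8628.3 in IRF8 KO. IRF8 KO replicate 1 lay above Control replicate 4, so the groups overlapped. The mean was 13402.5 ± 1169.7 (SD, n = 4) in Control and 10923.2 ± 1629.0 in IRF8 KO, which is 81.5% of the Control mean. The log2 difference was -0.30 (SE 0.14, 95% interval -0.62 to 0.01) and the gene was not called. By replicate number, the log2 differences were -0.25, -0.11, -0.35 and -0.51.

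Since size factors cancel in a ratio of 2 genes of the same library, the paralogs were also set against each other within each library. The log2 ratio of PTK2 to PTK2B was -2.07, -1.73, -1.94 and -1.53 in Control and -6.89, -4.43, -5.72 and -4.27 in IRF8 KO. The ratio was thus lower in each KO library than in any Control library, with a difference of the means of -3.51 (SE 0.624, n = 4 per group). PTK2 made up 22.2% ± 2.86 (SD, n = 4) of the counts of the pair in Control and 3.01% ± 1.98 in IRF8 KO. The lowest share was 0.828%, in IRF8 KO replicate 1, and the highest share in a KO library was 4.92%, in replicate 4. The sum of the pair went from 17207.0 ± 908.0 to 11247.6 ± 1547.7 normalized counts, or 65.4% of Control. These shares are of reads and are not corrected for transcript length.

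**Figure D2:**
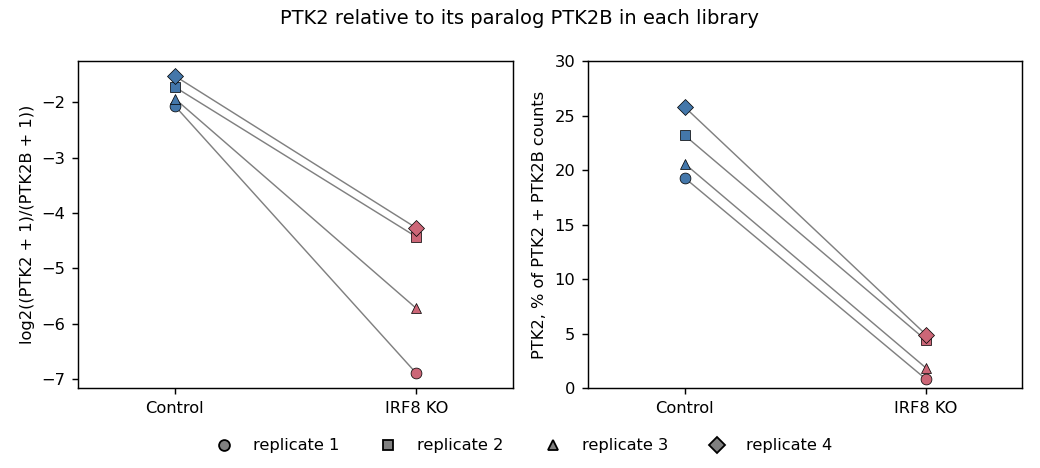
Left, log2 ratio of the normalized counts (plus 1) of PTK2 and PTK2B in each library. Right, percentage of the summed counts of both genes that came from PTK2. Lines join libraries with the same replicate number, and the ratio falls from between -2.07 and -1.53 in Control to between -6.89 and -4.27 in IRF8 KO.

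The paxillin gene PXN, whose product is phosphorylated by FAK and docks vinculin and the GIT proteins, was measured at 230.1, 205.3, 214.8 and 174.2 normalized counts in Control and at 149.2, 191.2, 274.9 and 300.0 in IRF8 KO. The KO libraries lay on both sides of the Control libraries. The log2 difference was 0.10 (SE 0.25, 95% interval -0.47 to 0.67), and by replicate number it ranged from -0.62 to 0.78. PXN overlaps the long noncoding gene PXN-AS1 in RefSeq.

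The CAS proteins carry the substrate sites that FAK and SRC phosphorylate to recruit CRK. BCAR1, which encodes p130CAS, was close to absent from these cells, with 1, 3, 2 and 2 reads in Control and 0, 0, 4 and 1 reads in IRF8 KO. A count of 0 allows up to 3 reads, or 3.20 normalized counts in IRF8 KO replicate 1 and 2.87 in replicate 2, so a difference was not detectable at this depth. Its paralog NEDD9 was at 274.3, 469.2, 220.1 and 334.2 normalized counts in Control and at 288.8, 433.9, 209.9 and 322.7 in IRF8 KO. The libraries of NEDD9 followed the replicate number and not the group. Replicates 2 and 4 were above replicates 1 and 3 by 0.69 on the log2 scale in Control and by 0.60 in IRF8 KO. The log2 difference between the groups was -0.04 (SE 0.29, 95% interval -0.71 to 0.63).

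VCL, the gene of vinculin, had the second largest difference of the set. It was measured at 6003.7, 3069.9, 5427.4 and 4262.4 normalized counts in Control and at 3396.2, 2612.3, 3642.8 and 2205.5 in IRF8 KO. The groups overlapped through Control replicate 2, which lay below IRF8 KO replicates 1 and 3. The mean was 4690.8 ± 1300.9 (SD, n = 4) in Control and 2964.2 ± 670.0 in IRF8 KO, or 63.2% of Control. This gave a log2 difference of -0.64 (SE 0.24, 95% interval -1.19 to -0.10) and the gene was not called. When the replicate number entered as a block, the SE was 0.14 and VCL was called, which made 2 of the 9 genes, against 28.7% of all tested genes in that fit. It was also called with DESeq2, where 25.9% of the tested genes were called, and when Control replicate 2 was left out. The log2 differences by replicate number were -0.82, -0.23, -0.58 and -0.95.

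RB1CC1, the gene of the FAK inhibitor FIP200, was measured at 7290.0, 10618.1, 7330.3 and 10920.9 normalized counts in Control and at 9491.7, 10740.5, 6762.8 and 11354.2 in IRF8 KO. The groups overlapped over most of their range, and replicates 2 and 4 were the higher libraries in both groups. Their log2 difference was 0.08 (SE 0.21, 95% interval -0.40 to 0.56).

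GIT1 and GIT2 encode GTPase activating proteins for ARF that bind paxillin, and ARHGEF7 encodes beta-PIX, an exchange factor for RAC and CDC42 that binds the GIT proteins. GIT1 was at 2814.8, 2928.4, 2614.9 and 2824.6 normalized counts in Control and at 2948.6, 4240.0, 3068.6 and 3082.0 in IRF8 KO. GIT2 was at 3675.6, 3309.6, 3643.7 and 3355.7 in Control and at 4839.1, 4070.8, 3835.1 and 3950.7 in IRF8 KO. For both genes each KO library lay above each Control library, although by small margins, and the KO mean was 1.19 times the Control mean. Of the 9 genes, 3 had groups that did not overlap, PTK2 lower and GIT1 and GIT2 higher, beside 25.3% of all tested genes. The log2 difference was 0.24 (SE 0.14, 95% interval -0.07 to 0.55) for GIT1 and 0.25 (SE 0.11, 95% interval -0.01 to 0.51) for GIT2, and neither was called. The highest GIT1 value, in IRF8 KO replicate 2, stood apart from the other 3 KO libraries. The log2 ratio of GIT1 to GIT2 was -0.322 ± 0.135 (SD, n = 4) in Control and -0.334 ± 0.316 in IRF8 KO. ARHGEF7 was at 3268.5, 3629.7, 3164.7 and 3350.0 in Control and at 3494.2, 3879.7, 2937.2 and 3071.2 in IRF8 KO. Its groups overlapped, with a log2 difference of -0.01 (SE 0.12, 95% interval -0.29 to 0.27).

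Several of the genes share genomic sequence with a neighbour. PTK2B overlaps TRIM35, VCL overlaps AP3M1, GIT1 overlaps TP53I13 and GIT2 overlaps ANKRD13A in RefSeq. The strand setting of the counting is not given, so reads from the shared stretches could not be assigned. The log2 differences of these neighbours were 0.06 (SE 0.13) for TRIM35, -0.05 (SE 0.10) for AP3M1, 0.20 (SE 0.19) for TP53I13 and 0.36 (SE 0.11) for ANKRD13A. None was called in limma without the block, and ANKRD13A was called higher with it (adjusted p = 0.032).

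**Figure D3:**
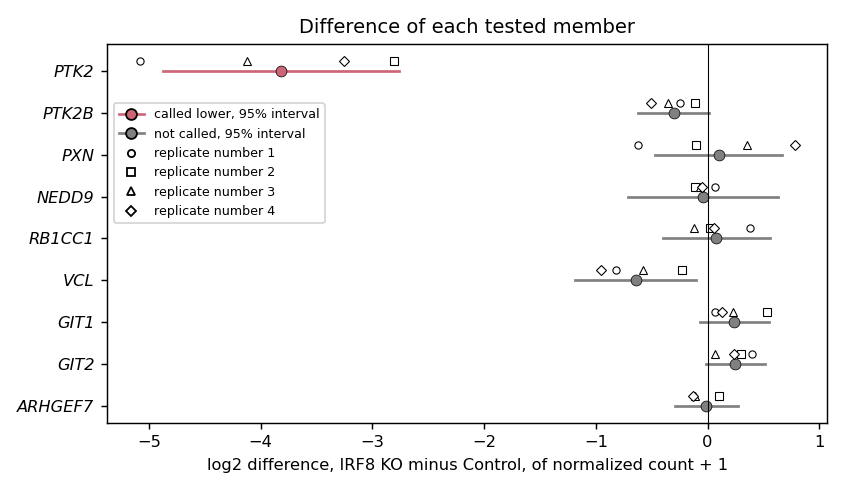
Log2 difference (IRF8 KO minus Control, normalized count + 1) of the 9 genes above the expression filter. Filled points and lines give the limma estimate with its 95% interval. Open symbols give the difference by replicate number, which ranges from -5.08 to -2.81 for PTK2. Whether libraries with the same number are true pairs is not established.

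PTK2, PTK2B and RB1CC1 all lie on chromosome 8, and the difference of PTK2 was not shared by this chromosome. The median log2 difference of the 436 tested genes of chromosome 8 was 0.09, of which 18.3% were called. The neighbours of PTK2 were taken in the order of RefSeq genes, 4 tested genes on each side. On the one side were AGO2, a core component of RNA silencing (0.27, SE 0.15), CHRAC1 (0.10, SE 0.13), TRAPPC9 (0.22, SE 0.11) and KHDRBS3 (0.30, SE 0.34). On the other side were DENND3 (-0.31, SE 0.24), SLC45A4 (0.66, SE 0.24), GPR20 (-0.64, SE 0.48) and PTP4A3, a phosphatase (-1.22, SE 0.42). None of the 8 was called with limma, 2 had an unadjusted p below 0.05, 0 were called with edgeR and 2 with DESeq2, and their median was 0.16. With the replicate block, PTP4A3 was called lower (adjusted p = 0.0039 in limma) and SLC45A4 higher (adjusted p = 0.0092). Within 20 tested genes on each side, 3 of 40 were called lower and 7 higher, or 6 and 9 with the block. Of all tested genes, 18.2% were called without the block and 28.7% with it. The 3 called lower were KCNQ3 (-6.83, SE 0.46), SLA (-1.07, SE 0.26) and JRK (-0.50), which are named after their values were seen. Around PTK2B, the 8 nearest genes had a median of -0.13, with 1 called lower and 1 higher, beside 18.2% of all tested genes. DPYSL2 (-0.95, SE 0.27) was called lower and CLU, the gene of clusterin, was called higher, going from 251.4 ± 77.3 to 1612.9 ± 272.6 normalized counts (SD, n = 4). The other 6, PPP2R2A, BNIP3L, TRIM35, CCDC25, ESCO2 and PBK, ranged from -0.34 to 0.13.

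**Figure D4:**
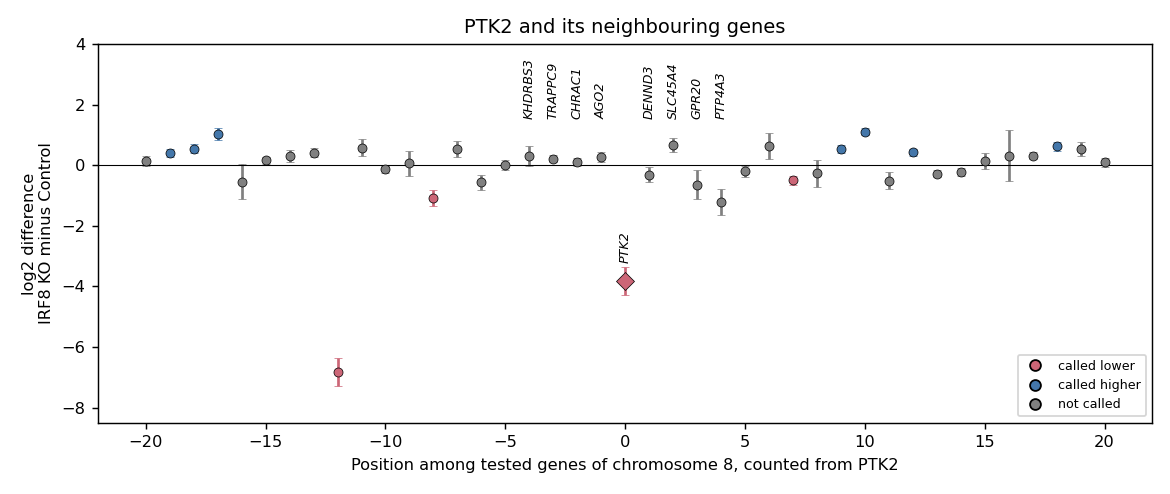
Log2 difference (IRF8 KO minus Control) of PTK2 and of the 20 tested genes on each side of it, in the order of RefSeq genes, with bars for the SE of the limma estimate. PTK2 (-3.82) lies below its 8 nearest neighbours, which range from -1.22 to 0.66 and are not called without the replicate block, and KCNQ3 (-6.83) is the gene below it.

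The genes most similar to each kinase were listed by Pearson's r of the log2 values over the 8 libraries, as a description. For PTK2 they were AFF3 (r = 0.999), MICAL2 (0.997), MOB3A (0.996), UST (0.995) and CLCN4 (0.995). All 5 were called lower, so the 8 points of each share the separation of the groups with PTK2. AFF3, which encodes a component of transcription elongation complexes, was at 2682.9, 3023.3, 2583.8 and 3534.5 normalized counts in Control and at 2.13, 44.9, 9.48 and 50.2 in IRF8 KO. MICAL2, an enzyme that oxidizes actin, was at 720.8, 864.3, 695.9 and 1006.5 in Control and at 13.9, 116.6, 29.8 and 92.5 in IRF8 KO. Both had the higher KO values in replicates 2 and 4, as PTK2 had, which follows from their choice by r over these libraries. The genes most similar to PTK2B were ARHGAP30, a GTPase activating protein (r = 0.995), FAM83G (0.977), ITSN1 (0.973), COASY (0.972) and RIPOR1 (0.967), and none of these was called in limma. With the replicate block, ARHGAP30, FAM83G, ITSN1 and COASY were called lower, at adjusted p-values of 0.049, 0.018, 0.035 and 0.044, and RIPOR1 was not (adjusted p = 0.16).

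The wider pathway was described with 75 genes in 7 lists. The lists were written by role, with earlier results of these data known, among them those of SRC and of chromosome 20. Their counts are therefore a description. Of the 69 tested, 11 were called lower and 7 higher with limma, which is 26.1% beside 18.2% of all tested genes, and the median log2 difference was -0.01. With the replicate block, 12 were called lower and 9 higher, beside 28.7% of all tested genes. The added genes were ARHGAP26, NCK2 and SH2D3C, at adjusted p-values of 0.022, 0.0082 and 0.0048 with the block and 0.38, 0.058 and 0.20 in limma without it. Without the genes of chromosome 20, a chromosome whose 351 tested genes had a median of -0.92, 8 of 65 were called lower and 7 higher, or 23.1%. This count without chromosome 20 was added after the data had been seen. Adjusted p-values of these genes are those of limma, Benjamini-Hochberg adjusted over the 13110 genes tested.

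Among the regulators and binding partners of FAK and PYK2, 3 of 17 tested genes were lower and 2 higher, with a median of -0.06. This is 29.4% called, beside 18.2% of all tested genes. SRC, the kinase that FAK recruits, was at 2056.2, 2222.8, 2284.2 and 2801.1 normalized counts in Control and at 511.5, 641.4, 570.1 and 406.3 in IRF8 KO. Its groups were far apart, with a log2 difference of -2.14 (SE 0.17). SRC was known to differ before the lists were written, so no p-value is given for it. SRC and PTPN1, a phosphatase that acts on SRC and p130CAS (-0.70, SE 0.12), lie on chromosome 20. The shift of that chromosome was also known before the lists were written, so no p-value is given for PTPN1. CSK, the kinase that inactivates SRC, went from 9708.7 ± 1437.4 to 6855.5 ± 701.1 (SD, n = 4; log2 difference -0.49, SE 0.14, adjusted p = 0.04). Its adjusted p ranged from 0.0057 to 0.11 over 18 alternatives, and the call was lost in 7 of them. ARHGEF28, an exchange factor that binds FAK, was low in both groups and higher in IRF8 KO (4.31 ± 2.82 and 31.2 ± 19.9, log2 difference 2.61, SE 0.54, adjusted p = 0.011). PIK3R1, the regulatory subunit of PI3 kinase, was higher as well, from 3491.2 ± 140.7 to 5589.5 ± 971.4 (log2 difference 0.66, SE 0.14, adjusted p = 0.011).

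The paralogs of paxillin and p130CAS showed no called gene among 3 tested, beside 18.2% called of all tested genes. There were 0 at an unadjusted p below 0.05 and 0 with edgeR and DESeq2. LPXN, which encodes the leukocyte paxillin leupaxin, was at 4391.5, 2237.5, 4482.4 and 2894.3 normalized counts in Control and at 5099.1, 3807.0, 4011.1 and 2870.5 in IRF8 KO. The groups overlapped (log2 difference 0.20, SE 0.26, 95% interval -0.39 to 0.79). CASS4, the CAS family member on chromosome 20, went from 59.4 ± 11.1 to 91.6 ± 26.6 (SD, n = 4; log2 difference 0.60, SE 0.27, 95% interval -0.02 to 1.21), and TGFB1I1, which encodes HIC5, differed by -0.07 (SE 0.42). EFS was below the filter, at 2.59 in Control replicate 2 and 0 in the other libraries.

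In the module of CAS, CRK and DOCK, 2 of 10 tested genes were lower and 2 higher, or 40.0% beside 18.2% of all tested genes. The adaptors and the RAC activator of blood cells had intervals that included 0, with log2 differences of 0.02 for CRK, -0.19 for CRKL and 0.11 for DOCK2. The ELMO scaffolds, which activate DOCK proteins, moved in opposite directions. ELMO1 was at 1656.4, 1199.0, 1604.4 and 1683.5 normalized counts in Control and at 4964.8, 3515.5, 4764.0 and 4406.1 in IRF8 KO (log2 difference 1.52, SE 0.16, adjusted p = 4.1e-04). ELMO2, on chromosome 20, was at 2802.7, 3200.1, 2795.3 and 2960.2 in Control and at 1159.4, 1570.4, 1267.5 and 1300.5 in IRF8 KO (-1.16, SE 0.12). As the shift of that chromosome was known, no p-value is given for ELMO2. The groups of both genes were separate. BCAR3, whose product binds the CAS proteins, fell from 57.0 ± 30.5 to 10.2 ± 6.41 (SD, n = 4; log2 difference -2.42, SE 0.50, adjusted p = 0.011). RAP1A, a small GTPase, was called higher (0.36, SE 0.11, adjusted p = 0.049), a call lost in 13 of 18 alternatives with adjusted p-values from 0.0039 to 0.13.

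The partners of vinculin held the most called genes of the 7 lists, 6 lower and 1 higher, with a median of -0.38. These were 7 of 14 tested genes, beside 18.2% called of all tested genes. SORBS2, a SORBS family adaptor that binds vinculin, was at 197.1, 249.3, 253.4 and 189.2 normalized counts in Control and nearly absent from IRF8 KO. Over the groups, 971 Control reads stood against 1 KO read, a ratio of 826.1 with an exact 95% counting interval of 147.9 to 32662.6. SORBS2 passed the filter only through its Control libraries, so no p-value is given. SORBS3, the gene of vinexin, was at 2227.5, 2712.8, 2056.5 and 2222.0 in Control and at 435.8, 1450.0, 689.3 and 787.0 in IRF8 KO (log2 difference -1.58, SE 0.32, adjusted p = 0.0095). FLNA, the actin crosslinker filamin A, was at 119824.1, 100065.6, 110804.6 and 103652.3 in Control and at 99076.0, 65641.8, 47875.9 and 46659.4 in IRF8 KO (-0.81, SE 0.23, adjusted p = 0.041, from 0.0041 to 0.11 over the alternatives and lost in 9 of 18). The others called lower were TLN1, which encodes the talin that vinculin binds (-0.63, SE 0.12, adjusted p = 0.0086), ACTN1 (-0.59, SE 0.12, adjusted p = 0.0096) and CTNNA1 (-0.62, SE 0.10, adjusted p = 0.0035), named after their values were seen. ACTN4, an alpha-actinin, was the gene called higher, from 17879.5 ± 1724.5 to 26188.1 ± 1888.5 (SD, n = 4; 0.55, SE 0.11, adjusted p = 0.009).

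The share called was 16.7% in the list of ILK, PINCH and parvin, 0% for GIT, PIX and PAK and 14.3% for ULK and FIP200. Of all tested genes 18.2% were called. In the complex of ILK, PINCH and parvin, PARVB, which encodes beta-parvin, was the 1 called gene of 6, higher at 0.61 (SE 0.13, adjusted p = 0.012), while ILK differed by -0.19 and LIMS1 by 0.03. In the module of GIT, PIX and PAK, 0 of 12 tested genes were called with limma, 1 had an unadjusted p below 0.05, 0 were called with edgeR and 1 with DESeq2. That gene was NCK2 (0.58, adjusted p = 0.058 in limma), which was also called higher with the replicate block. ARHGEF6, the PIX paralog of ARHGEF7, differed by 0.31 (adjusted p = 0.30), and PAK1 and PAK2 by -0.35 and -0.10. In the ULK complex and the FIP200 partners, TAX1BP1, an autophagy receptor that binds FIP200, was higher (0.65, SE 0.16, adjusted p = 0.023) and the other 6 tested genes were not called in limma. At an unadjusted p below 0.05, 2 of the 7 were higher, and 1 was called with edgeR and 2 with DESeq2, the second being SQSTM1 (0.64, adjusted p = 0.031 in DESeq2 and 0.065 in limma). The call of TAX1BP1 was lost in 4 of 18 alternatives, with adjusted p-values up to 0.065.

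**Figure D5:**
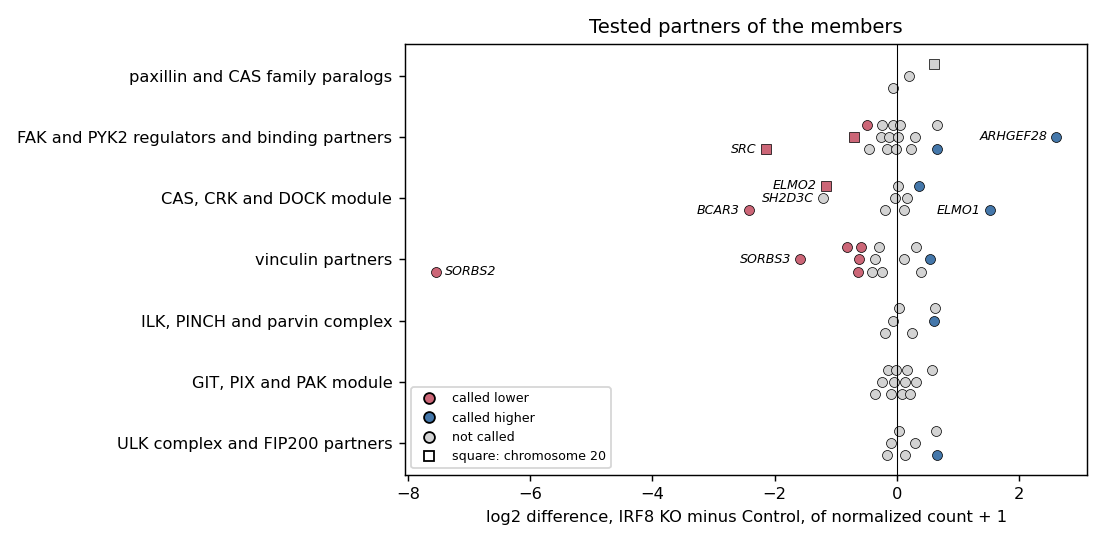
Log2 difference (IRF8 KO minus Control, normalized count + 1) of the 69 tested genes in the 7 lists, with genes of chromosome 20 as squares and vertical offsets within a list for legibility only. The list of vinculin partners holds 6 genes called lower and 1 called higher of 14 tested, beside 18.2% called of all tested genes. The position of SORBS2, with 1 read in the KO group, depends on the count of 1 added to each value.

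Markers of other cell types were measured beside these values. KRT8 and KRT18 were lower in IRF8 KO, and the sum of the epithelial list ranged from 1473.4 to 3728.0 in Control and from 60.7 to 242.4 in IRF8 KO, with EPCAM and CDH1 at or near 0. The fibroblast list, of which 2 of 5 genes were tested and 0 called, ranged from 32.2 to 87.1 in Control and from 22.4 to 420.6 in IRF8 KO. In the list of megakaryocytes and platelets, 2 of 5 genes were tested and 0 called, PF4 and PPBP were at 0 in each library, and the sum ranged from 5679.8 to 14677.3 in Control and from 2237.8 to 10218.7 in IRF8 KO. The T cell list reached at most 6.04 and the erythroid list at most 6.77 normalized counts in a library. The part of these cell types, and of the myelomonocytic genes that were higher, in the values above was not tested.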

How the data were processed

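RNA from 4 Control and 4 IRF8 KO libraries of MV4-11 cells was sequenced by the authors with a stranded mRNA kit. According to the methods, reads were aligned with RNA-Star to GENCODE transcripts, counted with featureCounts and normalized with DESeq2. No source used here gives the strand setting, and the processing notes of the submitters list hg19 and hg38 without saying which served this alignment. Signal values deposited by the authors are counts per gene divided by a size factor per library, so 100% of the values could be returned to whole reads (within 0.01 reads). The comparison table of the authors (means, log2 fold changes, SE, Wald scores, p-values and adjusted p-values) was not used, and neither were the 2 ChIP-Seq samples.

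For genes whose mean reached 10, log2(normalized count + 1) was fitted by limma (3.58.1, R 4.3.3; trend and robust options on). Calls were made at an adjusted p (Benjamini-Hochberg) below 0.05. Alternatives were count tests on the recovered reads (edgeR 4.0.16, DESeq2 1.42.0), other pseudocounts, filters and scalings, the thresholds of the study (p below 0.01 and at least 2-fold), a replicate block and leaving out each library. The wild type columns were taken as Control.

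The 10 genes and the lists were chosen with earlier results of these data known. The rule for named genes takes these 10, IRF8, the paxillin and CAS paralogs, SRC, up to 3 called genes per list and direction by size, 4 neighbours per side of PTK2 and PTK2B, and the 5 genes most similar to each. Library groups came from the labels. Replicate numbers are shared by the groups, and the deviations of same-numbered libraries from their group means correlated at 0.37, 0.48, 0.45 and 0.50 across genes. The numbers were taken as pairs only in the alternative fit with the replicate block, and the main fit was unpaired. However, replicates 1 and 3 deviated together against 2 and 4 across the groups, with correlations of 0.47 (Control 1 with KO 3), 0.41 (3 with 1), 0.40 (2 with 4) and 0.41 (4 with 2), so the data do not separate 4 pairs from this grouping. Intervals from counts cover counting error only. Chromosomes and gene order came from RefSeq (GRCh38.p14) for 13003 of the 13110 tested genes. Some results of the marker lists and promoter searches are not reported here.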

Additional observations from a re-analysis of the deposited data

Results flagged for a closer look

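In groups of 4 libraries, the gap of the highest or lowest library to its nearest neighbour was divided by the range of the group and set against the 95% critical value of Dixon's test. Of 59 groups of the genes named, 6 were above it, and chance alone flags about 1 in 20 when values are normally distributed. The 6 include SORBS2 and EFS, for which this rate does not hold, as given below.

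GIT1 was at 4240.0 normalized counts in IRF8 KO replicate 2, against 2948.6 to 3082.0 in the other KO libraries (ratio 0.897). ARHGEF28 was at 61.0 in IRF8 KO replicate 4, against 20.2 to 22.0 in the others (0.957). PIK3R1 was at 3281.3 in Control replicate 4, below the 3546.8 to 3580.3 of the others (0.888). ELMO1 was at 1199.0 in Control replicate 2, below the 1604.4 to 1683.5 of the others (0.837). SORBS2 in IRF8 KO and EFS in Control each had a single library above 0, at 0.984 and 2.59 normalized counts. With all other libraries of the group at 0, the ratio is 1.0 whatever that value is, so these flags were fixed by the zeros.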

How the results depend on the processing

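PTK2 was lower and called in each of the 19 fits, with a log2 difference from -4.15 to -3.36 when 1 library was left out, and its difference from PTK2B ranged from -3.86 to -2.99. With the replicate block, which follows the pairing by number, and with DESeq2, 2 of the 9 genes were called lower, and leaving out 1 library gave 1 to 2, the second gene being VCL without Control replicate 2. The block changed no other call of the 9 genes. Across all tested genes it raised the counts from 1253 to 1912 lower and from 1134 to 1857 higher. The thresholds of the study were applied to the limma fit and not to the DESeq2 test of the authors, so the counts are not those of the paper. They gave 802 lower and 627 higher, and 5 lower and 2 higher of the partner genes in place of 11 and 7. Leaving out 1 library gave 906 to 1294 lower and 759 to 1165 higher over all genes, and 9 to 12 lower and 5 to 7 higher partner genes. No called difference changed its sign. Of the members not called, the log2 difference with 1 library left out ranged from -0.05 to 0.29 for PXN, from -0.21 to 0.16 for NEDD9, from -0.01 to 0.24 for RB1CC1 and from -0.08 to 0.05 for ARHGEF7, so their sign changed. Without a filter on low values, 14 partner genes were lower and 6 higher. Of the partner genes, RAP1A, FLNA, CSK and TAX1BP1 lost their call in some alternatives, as given beside them. With 4 libraries per group, most members' intervals are wide, and BCAR1 is too low for a comparison.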

Other observations

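Of the 75 partner genes, 6 were below the expression filter (EFS, GRB7, DOCK1, TES, PARVA and ULK2), and the values of DOCK1, TES and PARVA are given after they were seen. DOCK1, the RAC activator that binds CRK and p130CAS, had a mean of 17.8 normalized counts in Control and 0.246 in IRF8 KO. TES, which encodes testin, had 11.8 and 0.731, and PARVA, which encodes alpha-parvin, had 6.82 and 0.246 (n = 4 per group). In the limma fit without a filter on low values these 3 were called lower, at adjusted p-values of 3.8e-04, 0.0024 and 0.02, and the other 3 were not called.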
